A study of Homo sapiens with 12 samples.

Results

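Control HepG2 cells after 6 h in actinomycin D were compared with the same cells at 0 h. The comparison took 4 of the 12 libraries of the series, 2 biological replicates at each time, and 12939 of the 22148 genes in the deposited tables, those with a mean normalized count of at least 20 over all 12 libraries. HepG2 is an established human liver cancer line with many hepatocyte functions, so that the results describe dividing tumour cells and not liver. The cells of both groups carried the control siRNA, siNC, for 48 h and differed in the time spent in 5 µg/ml actinomycin D (0 or 6 h). The remaining libraries were siNC at 3 h, given below as levels, and cells with siRNA against CPSF6 (siCPSF6) at 0, 3 and 6 h, which shared the estimate of the spread. ERCC RNA, a set of synthetic transcripts, was added to 5 µg of total RNA of each sample before mRNA libraries were made. A level scaled to these spike-ins is therefore a level per mass of total RNA. It does not follow the number of cells, and a change in total RNA per cell would not show in it. The question was which RNAs are lost, and how far, while no new RNA is made.

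Actinomycin D binds DNA and stops RNA polymerases, so that an RNA made earlier disappears at the pace of its own decay. Cytoplasmic mRNAs are usually degraded after their poly(A) tail has been shortened, by removal of the cap and digestion from that end, or by the exosome from the other end. AU-rich elements in the 3′ untranslated region (UTR), which proteins of the ZFP36 family bind, are known to speed this up. In hepatocytes, mRNAs of secreted plasma proteins are known for long lives, and those of transcription factors and feedback inhibitors for short ones.

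One such element, the nonamer TTATTTATT on the transcript strand, stands in the 3′ UTR of genes that fell and of genes that rose. To make that visible 8 of these sites are shown. They are 30 bases each from the GENCODE release 29 transcript on hg38, with the nonamer or a run of overlapping nonamers in capitals, and were chosen after the values were seen. The first 5 belong to mRNAs that fell and the last 3 to mRNAs that rose.
HAMP: cctcccttccTTATTTATTcctgctgcccc
SOX9: cttgctaaaaTTATTTATTttgtaaggaga
ZFP36L2: actatttaacTTATTTATTatcttgtgaaa
CSRNP1: ttctctggatTTATTTATTtgttttaactt
PIM1: tgttatgtatTTATTTATTTATTTATTtgg
ENO2: tttagtgtatTTATTTATTTATTTATTtta
PLXNA3: gacatgcaatTTATTTATTTATTTATTttg
CTSH: caccaaccccTTATTTATTtcaaacgtgcc

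These sites lie at chr19:35285067-35285096 (plus strand) in HAMP, chr17:72125498-72125527 (plus) in SOX9, chr2:43223447-43223476 (minus) in ZFP36L2 and chr3:39142884-39142913 (minus) in CSRNP1. Those of PIM1, ENO2, PLXNA3 and CTSH lie at chr6:37174985-37175014 (plus), chr12:6923282-6923311 (plus), chrX:154474138-154474167 (plus) and chr15:78921366-78921395 (minus). After 6 h HAMP stood at 0.754% of its 0 h level, SOX9 at 2.39%, ZFP36L2 at 3.32%, CSRNP1 at 3.43% and PIM1 at 11.7%. ENO2 (neuronal enolase), PLXNA3 (a semaphorin receptor) and CTSH (a lysosomal protease) stood at 136%, 130% and 172%. The windows of PIM1 and ENO2 hold the same run of 3 overlapping nonamers, and one of these mRNAs fell while the other rose. The nonamer was present in 947 of 11548 tested coding genes with a 3′ UTR (8.20%). Rises were the rarer case: with spike-in scaling 73.1% of genes with 1 copy were lower and 5.17% higher. Without the nonamer these shares were 59.1% and 10.7%.

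The cells expressed the hepatocyte genes that the label implies. All 10 defining genes, among them ALB, AFP, APOA1, APOB, TTR, SERPINA1 and HNF4A, passed the filter, with a summed spike-in scaled count of 1036040 and 899194 at 0 h and 1005060 and 1069340 at 6 h. Of 20 markers of immune, endothelial, stromal and biliary cells 10 passed, and their sum was 45543 and 41964 at 0 h and 40204 and 35772 at 6 h. Most of that sum came from LYZ, KRT19, EPCAM and SOX9, while COL3A1 was at 0 in all 6 siNC libraries and VWF, CDH5, VIM and KRT7 stayed under 7. The 4 libraries held between 25013700 and 26958100 reads, as estimated from the spacing of the rounded counts. Neither pair of replicates held the same counts within sampling noise, and each library was counted as 1 sample. Chi-square over its degrees of freedom, on the deposited scaled counts, was 6.36 at 0 h and 15.7 at 6 h. The deposited counts are the estimated reads times 0.725 and 0.744 at 0 h and 1.24 and 1.28 at 6 h. Because this ratio grows with the scale of the counts, its 2 values do not compare the times. CPSF6, the target in the other arm, stood at 3362 and 3170 at 0 h and at 2549 and 2936 at 6 h, a log2 change of -0.25 that did not pass (SE 0.16, limma adjusted p = 0.165).

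Most genes lost RNA relative to the spike-ins. With spike-in scaling 8795 genes changed (68.0% of those tested, at a limma adjusted p under 0.05 with Benjamini-Hochberg adjustment), 7469 of them lower (57.7%) and 1326 higher (10.2%), so that 15.1% of the calls were higher. The median gene fell by 0.65 on the log2 scale, and the middle 50% of genes lay between -1.55 and 0.00. After 6 h 4992 genes (38.6%) had under 50% of their 0 h level, 2177 (16.8%) under 25% and 526 (4.07%) under 10%. At the other end 3129 genes (24.2%) stood between 80% and 125%.

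As deposited, where the authors set the upper quartile of every library equal, the same libraries read mostly upward: 10265 genes changed (79.3%), 6292 higher (48.6%) and 3973 lower (30.7%), with 61.3% of the calls higher and a median of 0.31. All 3973 genes lower as deposited were lower with spike-in scaling too, and all 1326 genes higher with spike-in scaling were higher as deposited. Between these stood 1298 genes that were higher as deposited and lower by spike-in. Another 3668 were higher as deposited with no call by spike-in, and 2198 had no call as deposited and were lower by spike-in. The spike-in sum itself was 219864 and 226130 at 0 h and 468480 and 403691 at 6 h, a rise of 0.96 (log2) that sets the distance between the scales. The 2 sums at 6 h differed by 0.21, which limits the precision of any level near no change. Gene counts per spike-in count fell to 86.2% of the 0 h value. Changes below are spike-in scaled unless stated, as differences of mean log2(normalized count + 1) with their standard error (SE). The added 1 makes the changes of low genes too small.

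**Figure D1:**
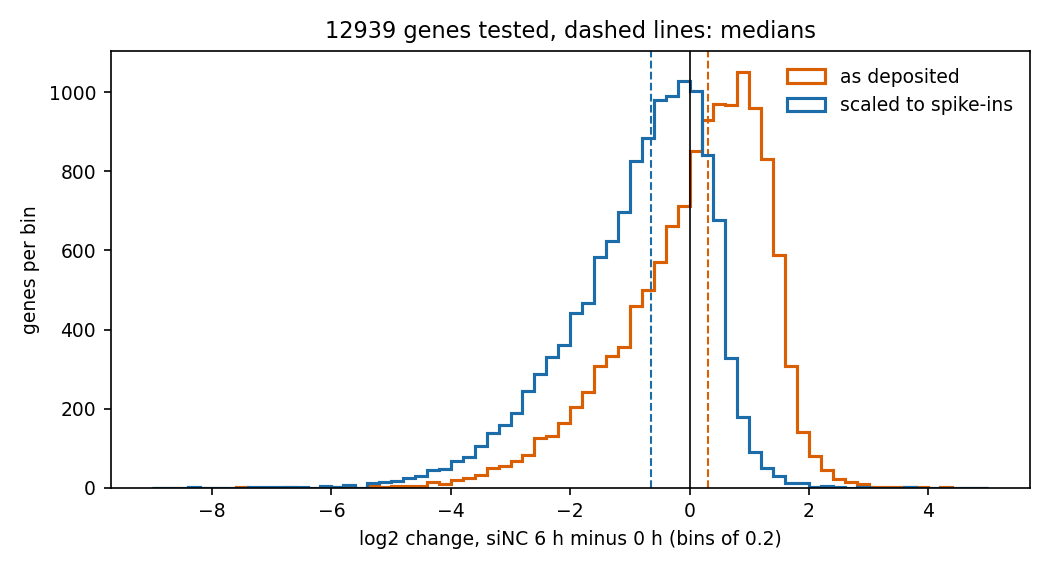
Number of genes (vertical axis, genes per bin of 0.2) by log2 change from 0 h to 6 h in siNC (horizontal axis) for 12939 genes, as deposited and scaled to spike-ins. The same distribution is centred at 0.31 on the deposited scale and at -0.65 on the spike-in scale (dashed lines), with a long tail to the left on both.

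Targets and inhibitors of the bone morphogenetic protein (BMP) and TGF-beta pathways held the deepest 2 of the losses named by rule among nuclear genes. HAMP, which encodes the iron hormone hepcidin, was at 1852 and 2573 at 0 h, 179 and 257 at 3 h, and 10.3 and 23 at 6 h. Its fall of 7.05 (SE 0.36, limma adjusted p = 6.6e-09) left no overlap between the groups, as in 85.3% of all tested genes. ID2, an inhibitor of helix-loop-helix transcription factors, went from 9860 and 10799 over 688 and 752 to 72 and 107. It fell by 6.86 (SE 0.18, limma adjusted p = 2.2e-30), and lost RNA in both 3 h steps. BAMBI, a decoy receptor of the pathway, was at 501 and 533 at 0 h and already at 4.61 and 14.9 at 3 h, with 6.61 and 6.82 at 6 h. ID1 likewise reached 751 and 947 by 3 h from 10954 and 14298, and stayed at 780 and 858. All 14 tested members of this list fell, against 57.7% of all genes, with a median of -3.20, and SMAD7, the inhibitory SMAD, kept 128 and 159 of 1478 and 1631.

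Liver transcription factors were lost with them. CEBPA was at 7444 and 9415 at 0 h and at 83 and 154 at 6 h (log2 -6.20, SE 0.40, limma adjusted p = 3.8e-06). XBP1, which serves the secretory pathway and the unfolded protein response, dropped from 13948 and 13088 over 1432 and 1599 to 339 and 438 (-5.13, SE 0.16). GATA4 (-5.06), NR0B2, a repressor of bile acid synthesis (-5.00), and FOXA2 (-3.73) followed. Of 26 tested hepatocyte transcription factors 24 fell, none rose, and the nuclear receptors NR1I2 (-0.38) and PPARA (-0.19) did not pass, against 57.7% of all genes lower. HNF4A was lost less and kept 3960 and 4622 of 10038 and 9922 (-1.22, SE 0.15), with 3555 and 4027 at 3 h. The median of the list was -2.86.

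Immediate early factors all fell. MYC, the growth-promoting factor, went from 5058 and 4813 to 137 and 101 at 3 h and 105 and 131 at 6 h (-5.38, SE 0.18, limma adjusted p = 4.1e-30). JUN, an AP-1 subunit, went from 1676 and 1641 to 129 and 106 and then 97 and 102. Both had therefore reached their 6 h level by 3 h. All 21 tested members were lower, against 57.7% of all genes, with a median of -2.84. CSRNP1 (-4.87) and IER3 (-3.87) were among the clearest. Every one of the 13 tested KLF and SP factors fell too (median -2.36), among them KLF10 (-4.16), KLF13 (-2.88) and KLF3 (-2.51).

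Feedback inhibitors of kinase and cytokine signalling shared this fate. All 14 tested MAP kinase phosphatases, Sproutys and related inhibitors fell, against 57.7% of all genes. The list median of -3.42 was the lowest of the lists with more than 1 tested gene. ERRFI1, an inhibitor of the EGF receptor, went from 10847 and 9029 to 381 and 457 (-4.56, SE 0.15), and SPRED2 fell by 3.31. Of 20 genes of NF-κB and cytokine feedback 18 fell (90.0%). NFKBIA, the inhibitor of NF-κB, stood at 2629 and 3241 at 0 h, 39.7 and 75.4 at 3 h and 37.5 and 66.5 at 6 h (-5.84, SE 0.35). NFKBIB, a paralog of it, rose (0.95, SE 0.17), while NFKBIZ (-0.40) did not pass. The kinase gene PIM3 fell by 3.64 and PIM1 by 3.10. Of 16 circadian clock genes 15 fell (93.8%, median -1.76), among them NFIL3 (-4.30) and NR1D1 (-3.87), whereas HLF (0.22) did not pass.

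**Figure D2:**
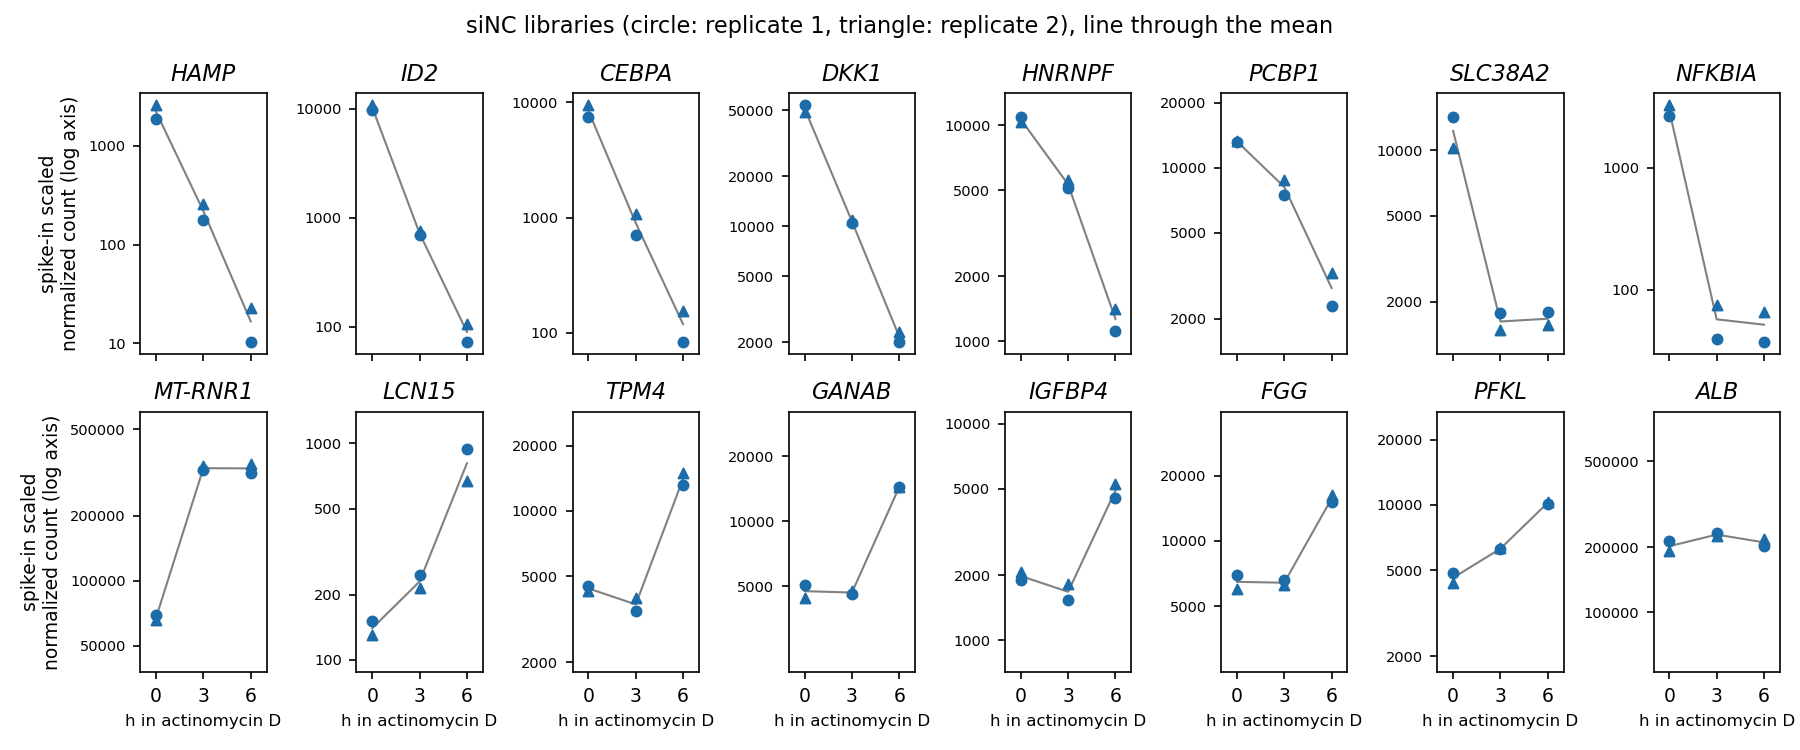
Spike-in scaled normalized counts (vertical axes, log scale, 1 range per gene) of 16 genes at 0, 3 and 6 h in actinomycin D in the siNC libraries, with each replicate as a point and a line through the means. SLC38A2 and NFKBIA had reached their 6 h level at 3 h, HNRNPF and PCBP1 lost a larger proportion after 3 h than before it, and TPM4, GANAB, IGFBP4 and FGG were flat to 3 h and high at 6 h.

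Most of the tested genes that carry out mRNA decay lost their own mRNA, 88.9% and 73.0% in the lists that follow against 57.7% of all genes. Of 27 genes for AU-rich element binding and deadenylation 24 fell and none rose, with a median of -1.45. ZFP36L2 went from 4192 and 4583 to 132 and 159 (-4.91, SE 0.17), BTG1, an adaptor of the deadenylase, fell by 4.77 and its relative TOB1 by 3.72. BTG3 (-0.09), HNRNPD (-0.03) and PAN2 (0.10) did not pass. For decapping, the exosome and nonsense-mediated decay the count was 27 lower, 3 higher and 7 not passing of 37 (median -1.03). Among those lower were SMG8 (-4.71), the decapping cofactors DCP1B (-3.43) and DCP1A (-2.55) and the helicase DDX6 (-2.32). LSM4, of the ring that binds shortened tails, rose (0.90, SE 0.16). As deposited 16 genes of that list were higher and 16 lower (43.2% each), against 48.6% and 30.7% of all genes (median -0.07).

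Cell fate and cell cycle genes were mostly lower. Among p53 targets 22 of 27 fell (81.5%, against 57.7% of all genes) and 1 rose (median -1.69). Lower were PPM1D, the phosphatase that switches p53 off (-4.41), SESN2 (-4.28) and CDKN1A, the inhibitor of cyclin-dependent kinases (-3.05). MDM4, an inhibitor of p53, was the 1 that rose (0.83, SE 0.18). In the BCL2 family 9 of 16 fell (56.3%, close to the 57.7% of all genes), MCL1 from 5640 and 5163 to 1265 and 1150 (-2.16) and BBC3 by 3.69. The family's median was -0.89, and 0.08 as deposited. Of 35 mitosis and G2/M genes 33 fell (94.3%, median -1.39), among them AURKA, a spindle kinase (-3.73), and PLK1 (-3.56). PLK1 went from 9593 and 10563 over 2779 and 3944 to 734 and 986. Of 38 genes for DNA replication and G1/S 24 fell (63.2%), among them CDC25A (-3.40) and RFC1 (-3.03), and 14 did not pass. The median of that list was -0.78, and 0.19 as deposited.

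The unfolded protein and integrated stress response list moved in both directions, with 12 lower, 11 higher and 4 not passing of 27. The shares were 44.4% lower and 40.7% higher, against 57.7% and 10.2% of all genes. The median was -0.08, and 0.88 as deposited. Among regulators, XBP1 fell as given above, DDIT4, an inhibitor of mTOR, from 2930 and 2057 to 47.8 and 23 (-6.16, SE 0.31), TRIB3 by 3.39 and HERPUD1 by 2.72. Among enzymes and chaperones, ASNS, asparagine synthetase, rose by 1.26 (SE 0.16), CRELD2 by 1.21, PDIA3 by 0.98 and HSP90B1, the chaperone of the endoplasmic reticulum, by 0.75. ATF4 (-0.08) and ATF6 (-0.20) did not pass. At 3 h ASNS stood at 88.2%, CRELD2 at 122%, PDIA3 at 119% and HSP90B1 at 110% of 0 h, so most of each gain lay between 3 h and 6 h.

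Among abundant mRNAs, with a mean count of at least 5000, some were lost early and some late. SLC38A2, an amino acid transporter gene, levelled off by 3 h, at 1765 and 1471 from 14283 and 10312, with 1781 and 1552 at 6 h. DKK1, a secreted Wnt inhibitor, fell by a similar proportion in each step, from 53657 and 48871 over 10463 and 10940 to 2000 and 2310 (-4.57, SE 0.14). By contrast HNRNPF, a splicing regulator, kept 5088 and 5540 of 10905 and 10320 at 3 h and 1121 and 1414 at 6 h. PCBP1, which binds C-rich RNA, had the same shape, with 7515 and 8768 at 3 h and 2285 and 3276 at 6 h from 13186 and 13293. Over the full 6 h the changes of HNRNPF and PCBP1 were -3.07 and -2.27 (SE 0.15 for each). Less abundant mRNAs with deep losses were FOXQ1 (-5.76), HPS6 (-5.75) and DDX20 (-5.67).

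Ribosomal protein mRNAs were the most uniform group that stayed. Of 78 tested, 65 rose (83.3%, against 10.2% of all genes), none fell, and 13 did not pass. The median was 0.48 and the lowest change 0.14 (RPL15). Higher calls were more frequent among abundant genes of any kind. They made up 46.7% at a mean count of 10000 or more (median 0.27), against 6.42% at 100 to 1000. RPS2 went from 57622 and 57510 over 81781 and 81014 to 95505 and 101763 (0.78, SE 0.13, limma adjusted p = 4.0e-07), and RPLP2 from 9491 and 9217 to 15914 and 17100 (0.82). The groups did not overlap in either, as in 85.3% of tested genes, though reads of ribosomal protein genes may be shared with their many pseudogenes. Their joint share of all normalized counts went from 6.00% and 5.71% to 9.62% and 9.12%. All 78 were higher as deposited, against 48.6% of all genes (median 1.44). Of 46 translation factors 24 fell (52.2%, near the 57.7% of all genes), 10 rose and 12 did not pass (median -0.40, and 0.57 as deposited). EIF2B4 (-2.39), EIF4E (-2.38) and EIF3A (-2.29) were lower, while EIF3F rose by 0.85.

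Nuclear mRNAs of the respiratory chain were higher more often than lower. Of 76 subunits 33 were higher (43.4%, against 10.2% of all genes), 5 lower and 38 not passing (median 0.32). With the replicate number as a block 44 were higher and 6 lower. As deposited 75 were higher (98.7%, against 48.6% of all genes) and none lower (median 1.28). As an example, spike-in scaled, COX8A was at 2280 and 2308 before and 3885 and 4889 after (0.93, SE 0.16). NDUFV3 fell by 0.79. Of 39 lysosomal genes 21 rose (53.8%) and 4 fell (10.3%), against 10.2% and 57.7% of all genes (median 0.42). As deposited 37 were higher (94.9%, against 48.6% of all genes), with a median of 1.38. Those that rose by spike-in included GAA, the acid glucosidase (0.94), and GUSB, the glucuronidase (0.84). The transcription factor of lysosomal genes, TFEB, fell from 337 and 405 to 81.6 and 74.2 (-2.23). Proteasome subunits were lower more often than higher, with 13 of 31 lower, 2 higher (4 with the replicate number as a block) and 16 not passing. The shares were 41.9% lower and 6.45% higher, both under the 57.7% and 10.2% of all genes. The list's median was -0.20, and 0.77 as deposited. PSMD12 and PSMD6 fell by 1.74 and 1.71.

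**Figure D3:**
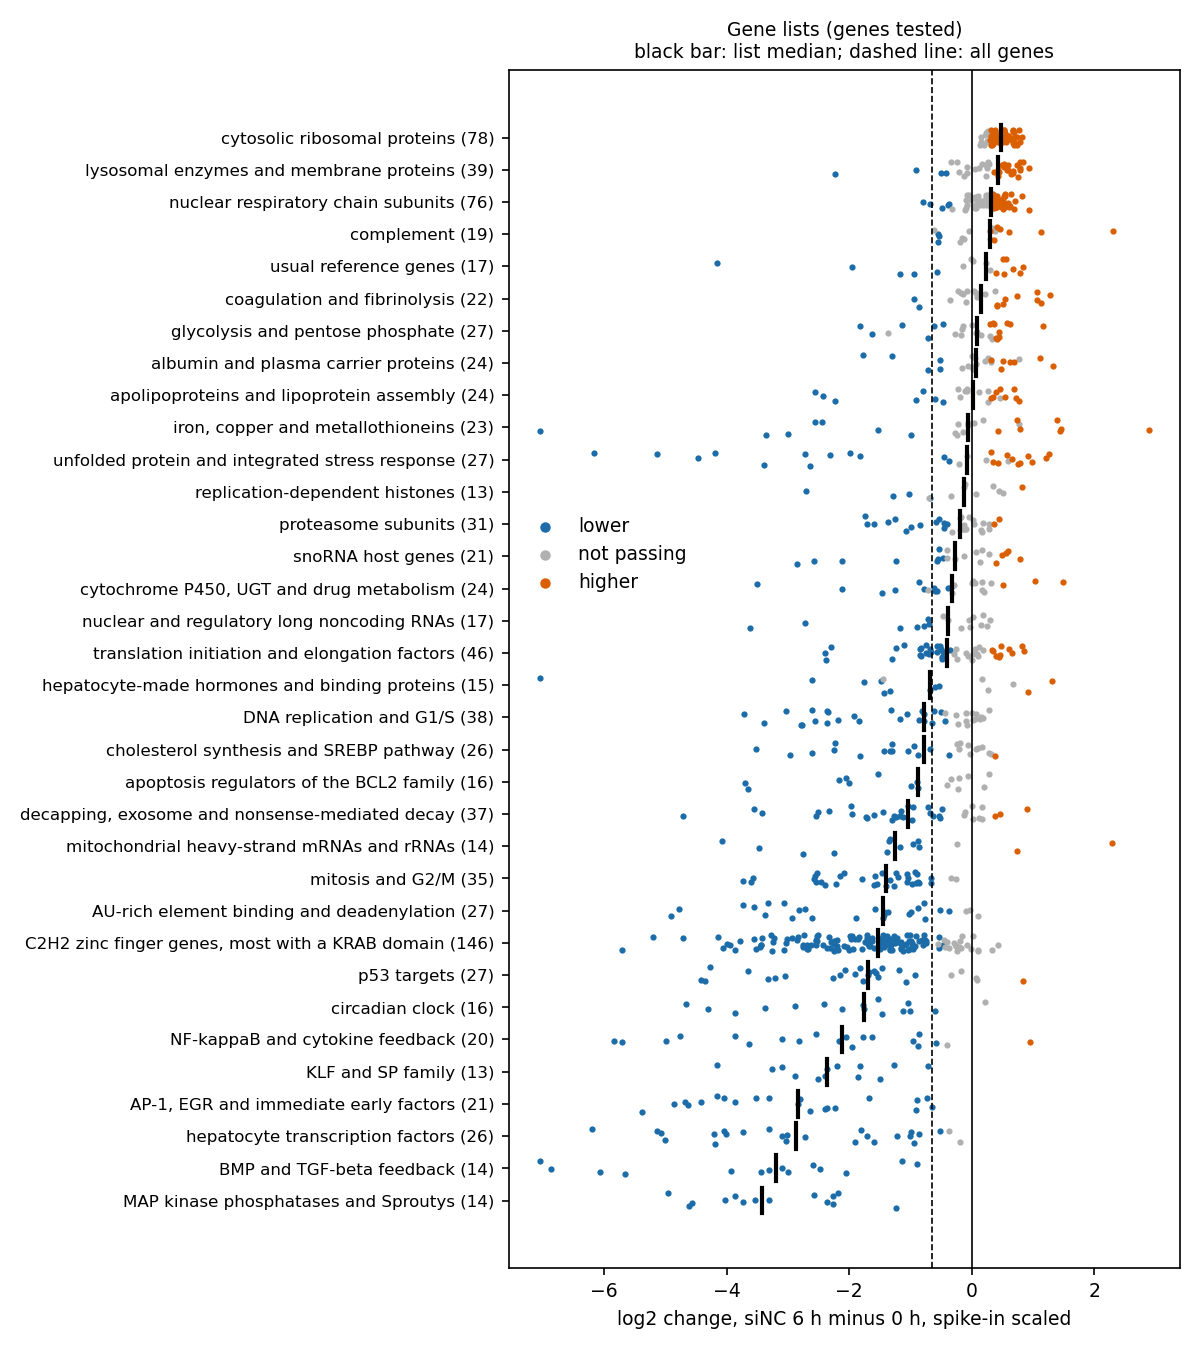
Log2 change from 0 h to 6 h in siNC, spike-in scaled (horizontal axis), for each tested gene of 34 lists (vertical axis, genes tested in parentheses), coloured by its call. The lists of transcription factors and signalling feedback genes have medians left of the dashed line at the median of all genes (-0.65), while cytosolic ribosomal proteins, lysosomal genes and nuclear respiratory chain subunits have medians of 0.48, 0.42 and 0.32.

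Plasma protein mRNAs, the main product of hepatocytes, were largely kept. ALB was at 212453 and 191611 at 0 h and 202502 and 218435 at 6 h, and the change of 0.06 did not pass (SE 0.13, limma adjusted p = 0.70). Of 24 genes of albumin and carrier proteins 7 rose (10 with the replicate block), 5 fell and 12 did not pass (median 0.06). The shares were 29.2% higher and 20.8% lower, against 10.2% and 57.7% of all genes. TTR, transthyretin, rose from 672 and 767 to 1653 and 1963 (1.33, SE 0.16). AHSG rose by 0.62 and HP, haptoglobin, fell by 0.72. The list's median was 1.02 as deposited, where 21 of 24 were higher (87.5%, against 48.6% of all genes).

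Fibrinogen mRNAs rose late and together. FGG was at 6956 and 5979 at 0 h, 6591 and 6223 at 3 h and 15115 and 16294 at 6 h (1.28, SE 0.15, limma adjusted p = 6.7e-10). FGA rose by 1.13 and FGB by 1.07, and both also stood near their 0 h levels at 3 h. TFPI, an inhibitor of coagulation, rose by 1.07. Of 22 coagulation genes 9 rose (40.9%, against 10.2% of all genes), 2 fell and 11 did not pass (median 0.14). As deposited 20 were higher (90.9%, against 48.6% of all genes) and none lower (median 1.11). Among 19 complement genes 7 rose (36.8%) and 3 fell (median 0.30). As deposited 17 of the 19 were higher (89.5%) and none lower (median 1.27). Spike-in scaled, C5 changed by -0.56 and C4BPA by 0.61. C8G had the largest estimate, 2.31, on counts of 10.96 and 6.09 before and 38.2 and 52 after.

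Apolipoproteins and lipoprotein assembly had 8 higher, 7 lower and 9 not passing of 24 (median 0.02). The shares were 33.3% higher and 29.2% lower, against 10.2% and 57.7% of all genes. APOA2 rose from 39417 and 32480 to 58877 and 59603 (0.73). APOL2 (-2.43) and APOL6 (-2.56) were lower. Of 15 hormones and binding proteins made by hepatocytes 9 fell and 2 rose, shares near the 57.7% and 10.2% of all genes. Their median was -0.69 (0.27 as deposited), near the -0.65 of all genes, so the list as a whole did not stand out. Those that fell included, beside HAMP, THPO, thrombopoietin (-2.60), and the stress cytokine GDF15 (-1.43). IGFBP4 rose from 1896 and 2061 to 4545 and 5280 (1.31).

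Metabolic genes were mixed. In cholesterol synthesis 15 of 26 fell (57.7%, the share of all genes), 1 rose (3 with the replicate block) and 10 did not pass (median -0.78, and 0.18 as deposited). SQLE, the squalene epoxidase, went from 8542 and 7584 over 2964 and 2988 to 614 and 802 (-3.52, SE 0.15). In glycolysis and the pentose phosphate pathway 10 rose (37.0%) and 6 fell (22.2%) of 27, against 10.2% and 57.7% of all genes (median 0.09). HK2, PFKFB3 and LDHA fell by 1.83, 1.63 and 1.13, whereas PFKL, the liver phosphofructokinase, went from 4840 and 4370 over 6229 and 6325 to 10110 and 10360 (1.15, SE 0.14). GAPDH rose by 0.40 (SE 0.13, limma adjusted p = 0.0050). Its call was lost without siNC 0 h replicate 2 (0.29, limma adjusted p = 0.105).

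Of 24 genes for drug metabolism 11 fell (45.8%, against 57.7% of all genes), 3 rose (12.5%, against 10.2%) and 10 did not pass (median -0.32, and 0.64 as deposited). UGT2B10, a glucuronosyltransferase, rose by 1.49 and POR, the electron donor of the cytochromes P450, fell by 0.57. Among iron and metal genes 7 rose and 7 fell of 23 (30.4% each, against 10.2% and 57.7% of all genes). The median was -0.06, and 0.90 as deposited. Those lower included the metal sensors MTF1 (-3.00) and IREB2 (-2.45) and the exporters SLC30A1 (-3.35) and ATP7B (-1.54). The metallothionein MT2A, which has close paralogs, rose by 1.39 and the ferritin chain FTH1 by 0.73.

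The 10 largest rises that the naming rule took at a mean count of at least 100 were each smaller in size than any of its 10 largest falls. LCN15, a lipocalin, went from 150 and 129 over 245 and 214 to 944 and 674 (2.51, SE 0.21, limma adjusted p = 6.5e-13). CAPN12, a calpain protease, rose by 1.99, MMP23B by 1.86, TPM2, a tropomyosin, by 1.81 and BPIFB2 by 1.71. CAPN12, MMP23B and TPM2 had made much of that rise by 3 h, at 289%, 235% and 244% of their 0 h levels. BPIFB2 replicates lay far apart, with 3486 and 2214 before and 10749 and 7640 after. SERPINI1, neuroserpin, was at 68.9 and 50.2 at 0 h, 64.6 and 56.5 at 3 h and 219 and 217 at 6 h (1.87). NT5E, the ectoenzyme that makes adenosine, had the same late rise, from 66.4 and 66.4 at 3 h to 280 and 229. PODXL2 went from 1301 and 1448 at 3 h to 3429 and 3711.

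Several abundant mRNAs also rose after 3 h. TPM4, a tropomyosin, was at 4518 and 4248 at 0 h, 3445 and 3951 at 3 h and 13222 and 14946 at 6 h (1.68, SE 0.14, limma adjusted p = 1.1e-14). GANAB, a glucosidase of the endoplasmic reticulum, went from 5070 and 4432 over 4621 and 4739 to 14333 and 14464 (1.60). TLE5, a corepressor, and PCK2, the mitochondrial carboxykinase, rose by 1.36 and 1.19 with 3 h levels of 3057 and 2974 and of 3356 and 3700, close to those at 0 h. COL9A3 (1.17) and FKBP10 (1.15) had risen in part by 3 h, to 9208 and 8697 from 5612 and 5414 and to 6608 and 6651 from 5106 and 4864. The late rises rest on the 2 siNC libraries of 6 h. In siCPSF6 the 6 h change of TPM4 was 0.14 and that of GANAB 0.35, and the difference between the arms passed for both by limma. Over all genes 8.73% had a 6 h change that differed between the arms, 6.89% with a higher and 1.84% with a lower value in siCPSF6.

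Mitochondrial transcripts changed unequally. The mitochondrial genome is copied as long precursors from both strands, which are then cut into single RNAs. MT-ND6, the 1 mRNA of the light strand, had the deepest fall of the named genes: 3220 and 3255 at 0 h, 68.3 and 39.7 at 3 h, and 7.35 and 11.1 at 6 h (-8.33, SE 0.26, limma adjusted p = 2.4e-28). The small ribosomal RNA MT-RNR1 rose from 69249 and 65598 to 324297 and 338087 at 3 h and 314605 and 346073 at 6 h (2.29, SE 0.13). MT-RNR2, the large one, stood at 167% at 6 h (0.74). As the libraries were made for mRNA, the counts of these ribosomal RNAs need not follow their total amount.

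Among heavy-strand mRNAs of complex I, MT-ND2 went from 199622 and 189407 over 35994 and 37410 to 10726 and 12529 (-4.07, SE 0.13) and MT-ND1 kept 14.8%. MT-ND3 kept 21.1%, while MT-ND4 and MT-ND5 kept 54.5% and 39.9%. MT-CYB, of complex III, kept 8.97% (-3.48). MT-CO1, of complex IV, stood at 691833 and 646318 at 0 h and 547120 and 578154 at 6 h, and its change of -0.25 did not pass (limma adjusted p = 0.0747). MT-CO2 and MT-CO3 kept 38.5% and 44.5%, and MT-ATP6 55.1%. Thus 11 of the 14 heavy-strand RNAs fell (78.6%, against 57.7% of all genes), 2 rose (14.3%, against 10.2%) and 1 did not pass. The mitochondrial share of all normalized counts was 9.97% and 9.76% at 0 h and 9.36% and 9.35% at 6 h. MT-ATP8 overlaps MT-ATP6 and MT-ND4L overlaps MT-ND4, so their counts are uncertain. MT-ND4L stood at 124% at 3 h and 39.3% at 6 h.

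**Figure D4:**
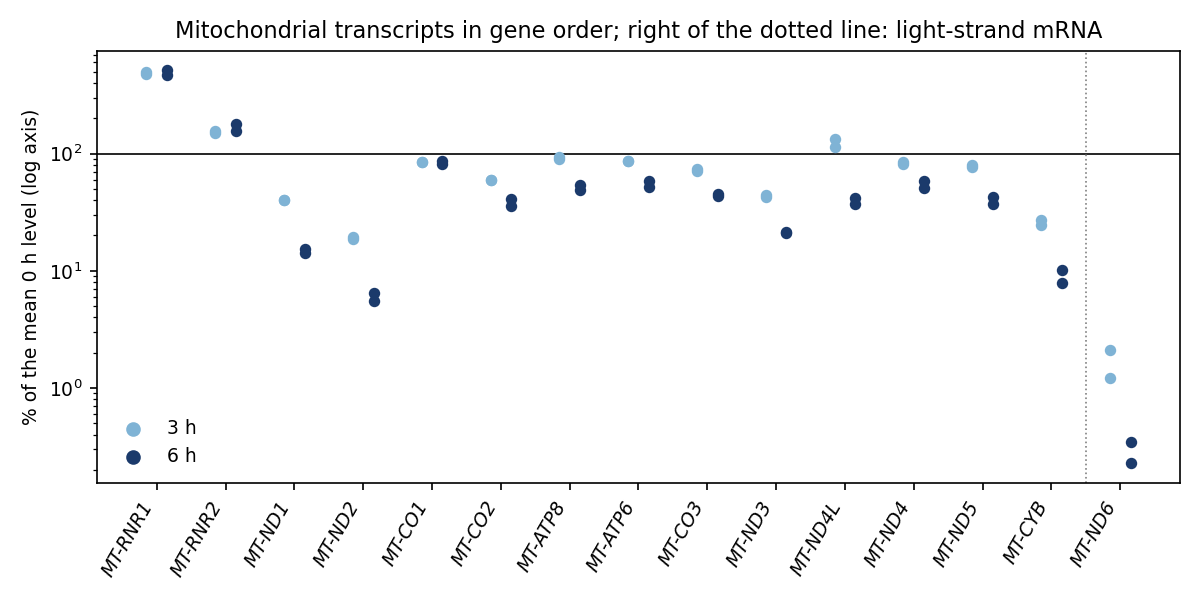
Spike-in scaled level of 15 mitochondrial transcripts as a percentage of their mean at 0 h (vertical axis, log scale), in gene order (horizontal axis), with each siNC library of 3 h and 6 h as a point. MT-RNR1 and MT-RNR2 stand above 100% at both times, MT-CO1 lies just under it, and MT-ND6, to the right of the dotted line, is under 1% at 6 h.

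Zinc finger genes of the C2H2 class, most of them repressors with a KRAB domain, formed the largest list of losses. Of 146 tested 125 fell (85.6%, against 57.7% of all genes), none rose (1 with the replicate block) and 21 did not pass. The median was -1.53. ZNF689 went from 1145 and 1041 over 111 and 105 to 47.8 and 35 (-4.71, SE 0.20), and ZNF672 (-4.15), ZNF614 (-3.86) and ZNF274 (-3.46) were lower too. The median member was at 32.1% by 3 h and at 34.6% at 6 h. As deposited 75 of the 146 were lower and 19 higher (median -0.59).

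Noncoding RNAs were mixed. Of 17 nuclear and regulatory long noncoding RNAs 7 fell (41.2%, against 57.7% of all genes), none rose and 10 did not pass. Their median was -0.38, and 0.57 as deposited. NORAD, which binds Pumilio proteins, went from 9176 and 8984 to 1385 and 1353 (-2.73), MIR22HG fell by 3.61 and KCNQ1OT1 by 0.78, whereas MALAT1 (0.02) did not pass. Among 21 snoRNA host genes 8 fell (38.1%), 5 rose (23.8%, against 10.2% of all genes) and 8 did not pass. Their median was -0.27, and 0.69 as deposited, with SNHG7 (-2.58) and SNHG12 (-2.84) among those lower. Of 13 histone genes that passed the filter 4 fell (30.8%) and 1 rose (7.69%), with a median of -0.13, and 0.78 as deposited. Among these, H4C14 (-1.28), H2BC21 (-1.02) and H2AC6 (-0.68) fell, and each lost the call when 1 library was left out, H4C14 without siNC 0 h replicate 2, H2BC21 without siNC 0 h replicate 1 or 6 h replicate 1, and H2AC6 without siNC 0 h replicate 2 or 6 h replicate 1.

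Genes often used as references did not stay level. Of 17, 7 rose (41.2%, against 10.2% of all genes), 5 fell (29.4%, against 57.7%) and 5 did not pass (median 0.23). TBP, the TATA-binding protein gene, fell by 1.95, POLR2A, the largest subunit of RNA polymerase II, by 1.17, and TFRC, the transferrin receptor gene, rose by 0.78. ACTB, the actin gene, was at 44542 and 48420 before and 37605 and 46715 after (-0.15, SE 0.14, limma adjusted p = 0.34), and these groups overlap.

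Features of the transcript models, which the comparison did not use, went with the loss, and are given as a description over genes, which are not replicates. Coding genes with 1 exon had a median change of -2.17 (n = 199), and 53.3% of them kept under 25% of their RNA. Those with 5 to 9 exons had -0.57 (n = 3773) and 15.3%. In 3 equal groups by length of the 3′ UTR, 46.1% of genes were lower among the short ones, up to 593 bases, 61.2% in the middle and 73.2% among the long ones, above 1788 bases. In 4 equal groups by GC content at the third codon position the medians ran from -1.05 in the lowest to -0.43 in the highest. These features overlap among themselves, and their separate parts were not tested.

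The AU-rich nonamer went with a smaller shift. Genes without it had a median of -0.67 (n = 10601), genes with 1 copy -1.04 (n = 735) and genes with more -0.97 (n = 212). Within the group of long 3′ UTRs the medians were -1.12 with and -0.98 without it. Of immediate early factors 6 of 20 carried it (30%) and of p53 targets 7 of 27 (25.9%), against 8.20% of tested coding genes with a 3′ UTR. MYC was not among the 20, as the transcript used for it has no 3′ UTR. Of hepatocyte transcription factors, with a list median of -2.86, only 1 of 26 carried the nonamer (3.85%). Among ribosomal protein genes 1 of 78 did (1.28%). By annotated type, protein-coding genes had a median of -0.69, long intergenic RNAs -0.57, antisense RNAs -0.43 and processed pseudogenes 0.16 (n = 132), whose reads may be shared with their parent genes.

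**Figure D5:**
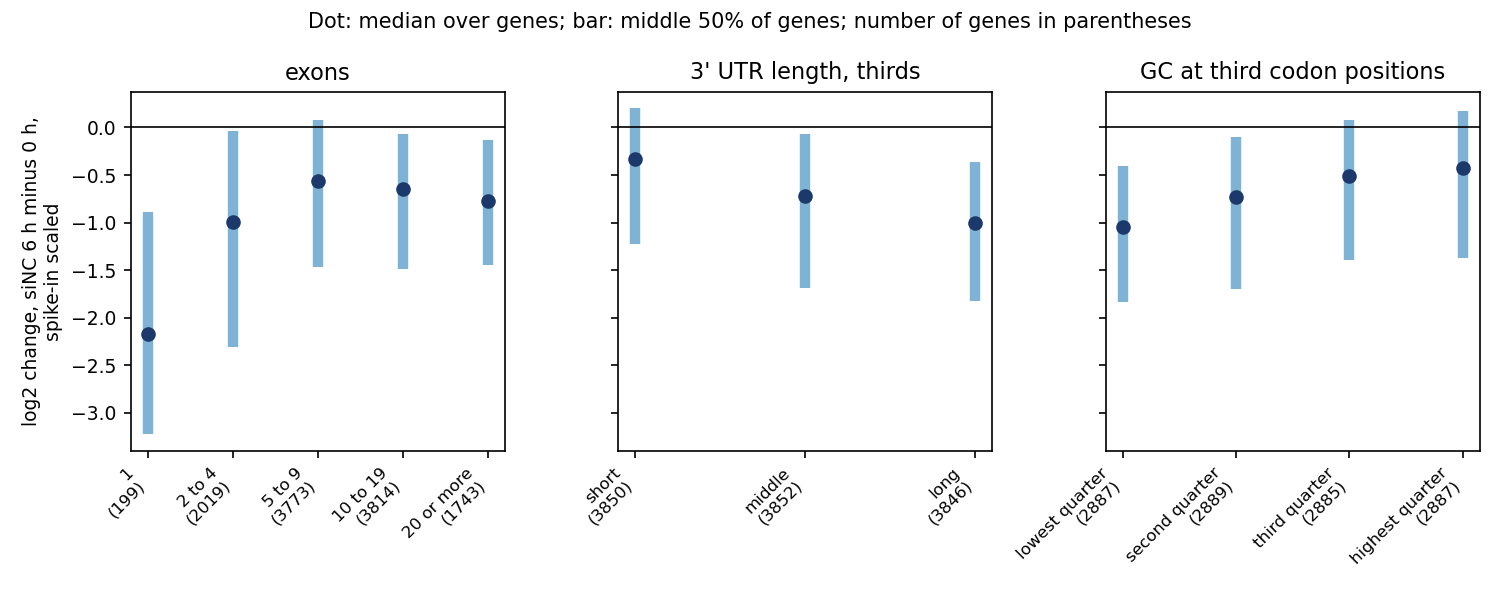
Log2 change from 0 h to 6 h in siNC, spike-in scaled (vertical axis), by number of exons, 3′ UTR length and GC at the third codon position (horizontal axes), as the median (dot) and middle 50% (bar) of genes. Single-exon genes have the lowest median (-2.17), and the median is nearest to 0 for the short 3′ UTRs (-0.33).

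The second deposited table, in length-scaled units (TPM), gave nearly the same median of -0.66 when scaled to its spike-ins. The 2 tables differ by the effective length of the transcripts that a gene's reads were assigned to, so their ratio is an apparent length, here as a percentage of its 0 h mean. Of 10542 genes with a mean count of at least 100 and a value in every library 656 changed (6.22%), 273 longer (2.59%) and 383 shorter (3.63%) by limma. SYNJ2, a phosphoinositide phosphatase, had 105% and 95.2% at 0 h, 40.0% and 41.9% at 3 h and 37.0% and 35.4% at 6 h (log2 -1.47, SE 0.06). HEATR5A went to 37.2% and 37.5% (-1.42). In both the count fell, by 1.57 and 1.52, while the TPM changed by only -0.14 in each. FNDC3B and SH3BP4 shortened to 47.8% and 45.5% and to 45.1% and 48.3%.

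In the other direction GXYLT1 reached 187% and 170% (log2 0.83), GPN2 197% and 198% (0.98), OXLD1 164% and 164% (0.71) and FBXO22 169% and 162% (0.73). PLXNA3, whose site is printed above, reached 191% and 208%. Its count rose by 0.37 and its TPM changed by -0.65, so its rise depends on the table, and its length call was lost with the replicate block (limma adjusted p = 0.0624) and without any 1 of the 4 libraries (0.0800 to 0.176). NEAT1, the paraspeckle RNA, which has a short and a long form, went from 98.9% and 101% to 165% and 151% (0.66). The length counts are less stable than those of the level: only 115 genes passed in a fit of the 4 libraries alone, and 253 to 387 when 1 library was left out. Of the 16 named by rule, FNDC3B, HEATR5A and SH3BP4 passed in the fit of 4 libraries and 13 did not, SYNJ2 narrowly (limma adjusted p = 0.0519), and also not GPN2 (0.0713), GXYLT1 (0.103), FBXO22 (0.103), OXLD1 (0.105) and NEAT1 (0.0793). With 1 library left out 6 or 7 of the 16 lost the call. NEAT1 lost it without siNC 0 h replicate 1, 0 h replicate 2 or 6 h replicate 1 (limma adjusted p 0.0655 to 0.0791). SYNJ2, HEATR5A, FNDC3B, RSF1, SNORC and NEAT1 overlap another annotated gene on their strand, as do KLF13, FOXA2, SPRED2, PIM3, BTG1, SMG8, DCP1A, MCL1, BBC3, HERPUD1, RFC1, GDF15, PFKFB3, LDHA, POR, RPS2, RPLP2, EIF3A, EIF4E, COX8A, ZNF689, SNHG7, SNHG12, MIR22HG, HNF4A and ENO2, so their reads may be shared. Of the 187 genes named by rule 90 overlap a gene on the opposite strand, where reads cannot be told apart if strand was not used in counting.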

How the data were processed

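RNA-seq was made from 12 libraries of HepG2 cells, 2 per siRNA and time, with a directional NEBNext Ultra kit per the labels' protocols. Per the submitters' processing notes the reads were handled with STAR and RSEM on hg38, while no source used here gives the versions, annotation or strand setting. The deposited gene counts are whole numbers with an equal upper quartile in every library. The authors therefore scaled and rounded them, so they were treated as a score and no count model was run. The deposited TPM values have the same total in every library, as made by the authors. Neither table gives raw reads, so depth was estimated.

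Counts were used as deposited and after division by the sum of the 87 spike-in rows, relative to the mean sum. The test took all genes whose mean reached 20, on log2(count + 1) with limma 3.58.1 (R 4.3.3, trend and robust settings, 6 group means over 12 libraries, 6 residual degrees of freedom). The Benjamini-Hochberg adjusted p threshold was 0.05 over 12939 genes. TPM values had 0.1 added. Apparent length was the log2 ratio of count to TPM relative to spike-ins, for genes with a mean of at least 100. The model was tested on simulated data. Python 3.11.15, numpy 2.4.6, pandas 2.3.3 and matplotlib 3.10.9 were used for the rest.

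The labels call the replicates biological but do not say what separates them, so p-values measure the spread between these samples. Same-numbered samples deviated together in all 15 pairs of groups (r from 0.108 to 0.236), which pairs them by their values and not by a label, and the fit without this block is reported.

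The genes and lists were chosen with earlier results of these data known. Genes named by rule were CPSF6, MYC, ALB, GAPDH, ACTB, MT-RNR1 and MT-ND6, the 10 largest falls and 10 largest rises at a mean of at least 100 and again at 5000, with no overlap between the groups and no gene on the same strand. The rule also took up to 4 members of each list with the smallest p, and the 8 largest changes of apparent length each way at a mean of at least 500. Other genes, such as list members that did not pass or moved against their list, mitochondrial mRNAs and ASNS, CRELD2, PDIA3, HSP90B1, MT2A, FTH1, ENO2 and CTSH, were chosen after their values were seen. Sequences and exons came from 1 transcript per gene of GENCODE release 29. Some genes of these lists are not reported here.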

Additional observations from a re-analysis of the deposited data

Results flagged for a closer look

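Of the 36 genes named for large changes, 20 had a 6 h change that differed between siCPSF6 and siNC by limma's test of the difference (Benjamini-Hochberg adjusted p under 0.05). Over all genes 8.73% passed this test, 6.89% with a higher and 1.84% with a lower change in siCPSF6. These genes were picked for large changes in siNC, so a smaller change in the other arm is in part built into the choice. Differences are siCPSF6 minus siNC, on the log2 scale with spike-in scaling.

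Among the genes that fell in siNC and passed this test, the fall was smaller in siCPSF6. The difference was 2.34 for DKK1, 1.99 for HAMP, 1.98 for HNRNPF, 1.73 for FOXQ1, 1.36 for ID2 and 0.60 for MT-CYB. HAMP fell by 5.06 in siCPSF6 and DKK1 by 2.23. Among those that rose in siNC and passed it, the rise was smaller. The difference was -1.93 for LCN15, -1.57 for SERPINI1, -1.54 for TPM4 and -1.36 for NT5E. It was -1.26 for MMP23B, -1.25 for GANAB and -1.22 for PODXL2. It was -1.07 for PCK2, -1.05 for FGG, -0.98 for TLE5, -0.91 for IGFBP4, -0.84 for TPM2, -0.73 for PFKL and -0.60 for FKBP10. The calls of MMP23B, NT5E, TPM2, MT-CYB, PFKL and FKBP10 were lost when a single library was left out.

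The arms already differed at 0 h in some of these genes. TPM4 stood at 9923 and 10478 in siCPSF6 against 4518 and 4248 in siNC and IGFBP4 at 8186 and 8271 against 1896 and 2061. The part of these levels in the differences was not tested.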

How the results depend on the processing

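The spike-in sum sets the level of every change: the 2 libraries of 6 h differ by 0.21 (log2) in it, and with 2 libraries a group a call near 0 rests on single libraries. Depth is estimated, since neither table holds raw reads. With spike-in scaling 882 to 1308 genes were higher when 1 library was left out, lowest without siNC 0 h replicate 2. As deposited, the TPM table gave 2025 higher and 6971 lower, and the median of all genes moved to -0.52 with TPM, 0.035 with median-ratio scaling, 0.11 with no filter, 0.29 with 10 added to the counts and 0.34 at a mean of at least 100. The cause was not tested.

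Apparent length gave 115 genes (22 longer, 93 shorter) in a fit of the 4 libraries alone, and 253 to 387 (116 to 130 longer, 137 to 263 shorter) leaving out 1 library. The difference between the arms gave 2323 genes (1698 higher, 625 lower) with the replicate block, 3153 (1547 and 1606) as deposited, and 607 to 1529 (475 to 1353 and 89 to 338) leaving out 1 library. For the spike-in scaled 6 h change in siNC, the block changed no call of the 171 genes named by rule for their level. Among other genes named here it did. Of the 26 hepatocyte transcription factors 25 were lower with the block and 24 without it, so that NR1I2 or PPARA passed with it.

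Some values changed sign. With TPM as deposited ACTB was -0.0606, and list medians were -0.71 for the BCL2 family, -0.69 for DNA replication, -0.67 for hormones, -0.65 for cholesterol synthesis, -0.17 for drug metabolism, -0.0599 for iron and metals, -0.25 for translation factors, -0.11 for the proteasome and -0.38 for long noncoding RNAs. With median-ratio scaling they were -0.19 for the BCL2 family, -0.0862 for DNA replication and -0.0864 for cholesterol synthesis. With spike-in scaled TPM, snoRNA hosts had 0.0641. The cause was not tested.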
